A study of Mus musculus with 4 samples.

Results

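RNA of the adult mouse testis at 6 months after birth was compared with RNA of the fetal testis at embryonic day 18 (E18), and the path between these ends was followed through a library at 3 weeks after birth. Each stage is 1 library of testis RNA from BALB/C mice that carry no labelled genetic change or treatment, and an E14 library is given beside some values. The RNA was bought from a supplier, per the labels' protocols, and the number of animals behind each library is not stated there. Of 112302 entries in the deposited tables, 37493 reached an RPKM (a read count divided by gene model length and by library size) of at least 1 at E18 or at 6 months, and these were compared. Among them are 11197 established symbols, meaning protein-coding genes with a settled name in the reference annotation, which are the genes described below unless all entries are named. The imprinted gene list also holds genes outside that set, the non-coding H19 and Meg3. A difference is log2(RPKM + 1) at 6 months minus that at E18, so it understates the change of low genes, and a size of at least 1, 2-fold on that scale, is called higher or lower. With 1 library per stage there is no replicate check, no test was made, and these words describe the libraries.

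In the fetal testis, germ cells are few and arrested, while Sertoli cells support them, fetal Leydig cells make androgen, and peritubular, stromal and vessel cells are plentiful. After birth spermatogonia divide and enter meiosis, and meiotic spermatocytes fill the tubules in the first wave of spermatogenesis. In the adult, round and elongating spermatids are added: they build an acrosome and a flagellum and replace their histones first with transition proteins and then with protamines. Meiosis silences the X chromosome, and many housekeeping genes have a second, germ cell form elsewhere in the genome. In bulk tissue RNA, fewer cells of a type and less RNA per cell cannot be told apart.

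Promoters are shown for 2 pairs of genes that carry the main contrasts of the comparison. Prm1 and Prm2 encode the protamines and were below 1 RPKM at both earlier stages, and Pgk1 and Pgk2 are the somatic and the germ cell form of the glycolytic enzyme phosphoglycerate kinase. The sequences are from RefSeq on GRCm38.p6 and run 5′ to 3′ on the gene's strand, from 250 bases before to 50 bases after the start, with each CG dinucleotide in capitals. They lie at chr16:10796774-10797073 (minus strand) for Prm1, chr16:10792056-10792355 (minus strand) for Prm2, chrX:106186850-106187149 (plus strand) for Pgk1 and chr17:40208560-40208859 (minus strand) for Pgk2.
Prm1: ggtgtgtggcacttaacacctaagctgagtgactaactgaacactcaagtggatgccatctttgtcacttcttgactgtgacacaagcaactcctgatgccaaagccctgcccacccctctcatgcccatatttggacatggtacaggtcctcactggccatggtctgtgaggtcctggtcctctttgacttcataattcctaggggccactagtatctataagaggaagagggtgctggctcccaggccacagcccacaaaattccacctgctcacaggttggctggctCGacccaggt
Prm2: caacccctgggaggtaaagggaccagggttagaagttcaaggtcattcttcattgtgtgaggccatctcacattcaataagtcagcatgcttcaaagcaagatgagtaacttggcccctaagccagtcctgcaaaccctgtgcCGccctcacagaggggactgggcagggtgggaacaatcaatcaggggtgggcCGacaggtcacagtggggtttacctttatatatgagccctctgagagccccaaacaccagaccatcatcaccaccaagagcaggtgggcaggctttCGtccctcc
Pgk1: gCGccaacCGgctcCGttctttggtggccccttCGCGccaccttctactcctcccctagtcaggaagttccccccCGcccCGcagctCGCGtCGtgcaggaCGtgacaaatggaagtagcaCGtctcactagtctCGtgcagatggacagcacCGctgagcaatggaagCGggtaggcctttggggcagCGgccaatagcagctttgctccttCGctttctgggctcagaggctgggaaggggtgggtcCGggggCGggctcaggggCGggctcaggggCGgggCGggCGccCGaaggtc
Pgk2: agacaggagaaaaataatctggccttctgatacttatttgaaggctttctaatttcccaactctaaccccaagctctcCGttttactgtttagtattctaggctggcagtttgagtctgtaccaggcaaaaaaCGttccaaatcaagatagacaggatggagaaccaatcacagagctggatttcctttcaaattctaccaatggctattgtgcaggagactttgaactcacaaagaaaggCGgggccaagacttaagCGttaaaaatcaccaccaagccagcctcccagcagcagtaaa
The Prm1 promoter holds 1 CG dinucleotide and that of Prm2 holds 3. Pgk1 has 24, spread over the whole window, and Pgk2 has 4.

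Among all 37493 entries, 14130 were higher at 6 months than at E18 (37.7%) and 6603 were lower (17.6%). Among the 11197 established symbols the numbers were closer, with 2750 higher (24.6%) and 2391 lower (21.4%), a median difference of -0.09 and 6056 within 2-fold. On the log2(RPKM + 1) scale the higher differences were the larger ones. There 414 symbols were at least 16-fold higher and 53 at least 16-fold lower, and at 64-fold the numbers were 96 and 0. The added 1 holds back falls to low levels, so that 0 does not mean that no symbol fell so far. Without it, the ratio of 6 months to E18 was 0.00471 for Itm2a and 0.00284 for Gpc3, both beyond 64-fold lower. Below 0.5 RPKM at E18 and at or above 5 RPKM at 6 months were 694 symbols, and 165 had the reverse pattern. Entries without an established name differed by kind. Of 1451 Riken-named entries, 918 were higher and 87 lower, and of 4010 short entries with DQ identifiers, 3918 were higher and 24 lower. Of 12044 entries with NONCODE identifiers, 3868 were higher and 2066 lower, and of 3353 Gm-numbered models, 1072 and 711. Pseudogene identifiers (894 higher and 677 lower of 3032) and other names (710 and 647 of 2406) had medians of -0.11 and -0.19. The labels disagree on whether polyadenylated RNA was isolated after the depletion of ribosomal RNA, and the levels of entries that may lack a poly(A) tail depend on that step. The split between higher and lower depended on the scale: 68.2% of called entries were higher at the deposited scale, 53.5% among established symbols, 84.8% at a 4-fold limit and 95.9% after rescaling to equal levels of ribosomal protein genes. That rescaling moved the median difference of all entries up by 1.16, and rescaling to an equal sum moved it up by 0.13.

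The limits cut through a dense range of values. Just inside the limit of 1 RPKM was Kif26b, a kinesin, with 1.0 RPKM at E18 and 0.0435 at 6 months, and just outside was Parvb, an adhesion protein, with 0.999 and 0.519 RPKM. The 2-fold limit is set on log2(RPKM + 1), so ratios of RPKM near it are larger than 2 for low genes. Just inside it were Plk4, a centriole kinase (2.35 and 5.7 RPKM), and Sdc4, a syndecan (11.3 and 5.15 RPKM). Just outside were Tex12, a protein of the synaptonemal complex (0.742 and 2.48 RPKM), and Metrnl, a secreted protein (1.54 and 0.272 RPKM).

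**Figure D1:**
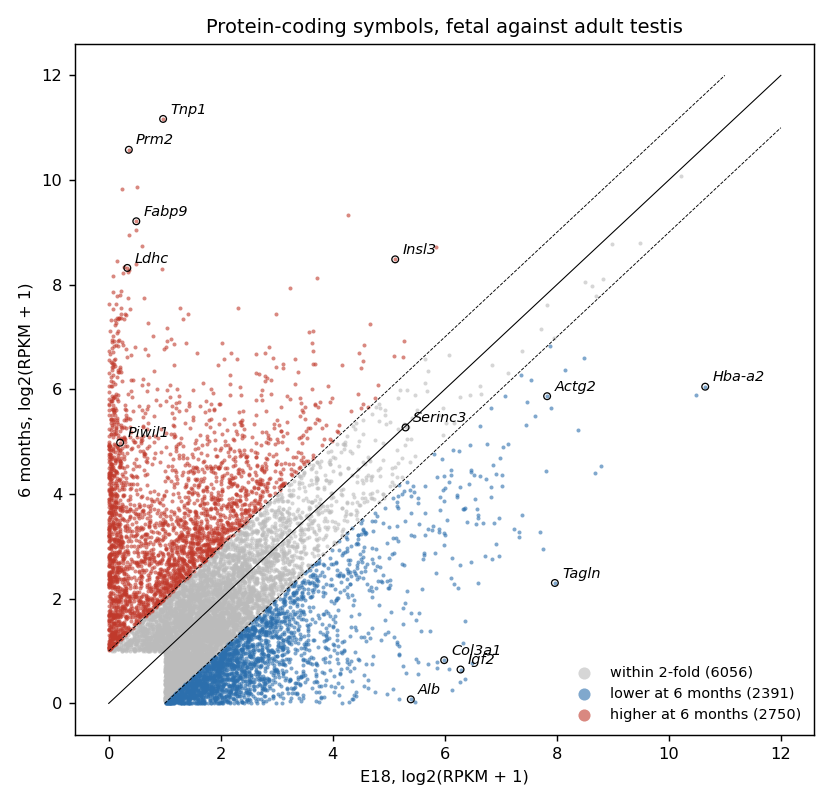
Each point is an established symbol, with log2(RPKM + 1) at E18 on the horizontal axis and at 6 months on the vertical axis; the solid line marks equal levels and the dashed lines a 2-fold difference. The 2750 higher symbols reach up the left edge to Prm2 and Tnp1, while the 2391 lower ones reach along the bottom with Tagln and Igf2.

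The largest higher differences belonged to the chromatin proteins of late spermatids. Prm2 had 0.283 RPKM at E18, 0.76 at 3 weeks and 1528 at 6 months, a difference of 10.22. Tnp1, a transition protein, had 0.96 RPKM at E18, 3.46 at 3 weeks and 2299.6 at 6 months, a difference of 10.20. Prm1 followed with 0.175 RPKM at E18, 0.573 at 3 weeks and 905 at 6 months, and Tnp2, the other transition protein, with 0.425 RPKM at E18, 0.964 at 3 weeks and 937 at 6 months. All 4 lay below 1 RPKM at E18 and below 4 RPKM at 3 weeks, and most of the difference lay in the last step. Tnp1 was also higher by 1.19 in the first step, which the other 3 were not by the 2-fold limit. Prm1, Prm2 and Tnp2 are neighbours on chromosome 16, while Tnp1 is on chromosome 1. On GRCm38 they span from 10787936, the lowest coordinate of Tnp2, to 10805839, the highest of Prm1. This annotated span of Prm1 reaches past the RefSeq promoter shown above. The Prm2 level at E18 rests on 3 recovered reads, and the ratio of 6 months to E18 was 5405, with an exact Clopper-Pearson 95% interval from 1849 to 26209.8 that covers counting error only. For Tnp1 the ratio was 2395, with an interval from 1427 to 4381.

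The next largest split into genes already high at 3 weeks and genes that came mostly afterwards. Fabp9, a fatty acid binding protein of germ cells, had 0.407 RPKM at E18, 429.7 at 3 weeks and 592 at 6 months. Ldhc, the germ cell lactate dehydrogenase, had 0.259 RPKM at E18, 227 at 3 weeks and 319 at 6 months. Fhl4, a LIM domain protein of germ cells, had 0.514 RPKM at E18, 212 at 3 weeks and 424 at 6 months. These 3 had reached more than 200 RPKM by 3 weeks. Oaz3, a germ cell antizyme, had 0.283 RPKM at E18, 7.52 at 3 weeks and 496 at 6 months, and Gsg1, a germ cell membrane protein, had 0.111 RPKM at E18, 4.84 at 3 weeks and 349 at 6 months. Odf1, a protein of the outer dense fibers of the tail, had 0.0529 RPKM at E18, 4.53 at 3 weeks and 287 at 6 months. Akap4, the main protein of the fibrous sheath and the single X-linked gene among the 12 largest, had 0.212 RPKM at E18, 6.29 at 3 weeks and 323 at 6 months. Dbil5, a diazepam binding inhibitor-like protein, had 0.402 RPKM at E18, 32.7 at 3 weeks and 524 at 6 months and was higher at each step. For these 5 the 3-week value stood above E18 and far below 6 months.

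The 12 largest lower differences of established symbols included growth, matrix and contractile genes, and for all but Col3a1, a collagen gene, most of the difference was in place by 3 weeks. Col3a1 fell by 2.05 in the first step and by 3.11 in the last. Itm2a, a membrane protein, had 81.5 RPKM at E18, 3.14 at 3 weeks and 0.384 at 6 months, a difference of -5.90. Gpc3, a glypican that restrains growth, had 68.8 RPKM at E18, 2.98 at 3 weeks and 0.196 at 6 months. Mest, an imprinted gene, had 76.3 RPKM at E18, 1.16 at 3 weeks and 0.333 at 6 months. Agtr2, the type 2 angiotensin receptor, had 43 RPKM at E18, 0.248 at 3 weeks and 0.0252 at 6 months. Itm2a, Gpc3 and Agtr2 are X-linked. Tagln, a smooth muscle protein also called transgelin, had 249 RPKM at E18, 10.4 at 3 weeks and 3.93 at 6 months, and Fstl1, a secreted follistatin-like protein, had 78.9 RPKM at E18, 7.65 at 3 weeks and 1.22 at 6 months. Actc1, cardiac actin, had 66.4 RPKM at E18, 0.182 at 3 weeks and 0.587 at 6 months, so that it was lowest at 3 weeks. At 6 months all 12 lay under 4 RPKM, from 0.0252 for Agtr2 to 3.93 for Tagln.

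The germ cell lists are given in the order of spermatogenesis. These genes passed the limit of 1 RPKM mostly through the adult library, so the counts describe their direction and are no support for it. Of 31 measured meiotic prophase genes (38 listed), 22 were higher and 0 lower, with a median difference of 1.75. Over all established symbols 24.6% were higher and 21.4% lower. Syce1, of the synaptonemal complex, had 0.979 RPKM at E18, 128 at 3 weeks and 108 at 6 months. Hspa2, a heat shock protein needed in spermatocytes, had 1.66 RPKM at E18, 168 at 3 weeks and 172 at 6 months, a difference of 6.02. Sycp3, an axial element protein, had 2.5 RPKM at E18, 147 at 3 weeks and 37.6 at 6 months, so that it was highest at 3 weeks. Smc1b and Stag3, subunits of meiotic cohesin, had 0.195, 19.6 and 7.44 RPKM and 2.33, 42 and 39.6 RPKM at the same 3 stages.

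Piwi proteins bind piRNAs, the small RNAs that silence transposons in germ cells and some of which can direct cleavage of RNA. Of 22 measured genes of the pathway (23 listed), 19 were higher and 0 lower, beside 24.6% and 21.4% of all established symbols. The list median was 2.03. Piwil1, the Piwi protein of pachytene spermatocytes and round spermatids, had 0.152 RPKM at E18, 60.3 at 3 weeks and 30.6 at 6 months, a difference of 4.78. Mael, a protein of the nuage, had 8.43 RPKM at E18, 264 at 3 weeks and 245 at 6 months. Piwil2 had 2.05 RPKM at E18, 17.2 at 3 weeks and 9.06 at 6 months, and Piwil4, the Piwi protein of fetal germ cells, had 0.483 RPKM at E18, 0.104 at 3 weeks and 0.0363 at 6 months and did not reach 1 RPKM at either end. Gtsf1, a partner of Piwi proteins, had 0.757 RPKM at E18, 7.48 at 3 weeks and 24.7 at 6 months and was higher at each step. Ddx4, a germ cell helicase, had 2.68 RPKM at E18, 95.2 at 3 weeks and 48.6 at 6 months.

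The spermatid lists held the largest medians. Of 12 genes of spermatid chromatin, 11 were higher (median 6.81), beside 24.6% of all established symbols. Hils1, a spermatid linker histone, had 0.11 RPKM at E18, 4.0 at 3 weeks and 219 at 6 months. Hist1h1t, the testis linker histone, had 1.15 RPKM at E18, 132 at 3 weeks and 124 at 6 months, the single linker histone of the list that was as high at 3 weeks as in the adult. H3f3b, a replacement histone used in many tissues, had 36.7 RPKM at E18, 54.1 at 3 weeks and 24.9 at 6 months and stayed within 2-fold. Of 22 regulators of the round spermatid, 21 were higher (median 4.94), beside the same 24.6%. Spem1, needed to shed the spermatid cytoplasm, had 0.168 RPKM at E18, 0.169 at 3 weeks and 172 at 6 months, and Ybx2, which stores mRNA, had 0.93 RPKM at E18, 174 at 3 weeks and 316 at 6 months. Crem, a transcription factor of spermatids, had 0.879 RPKM at E18, 9.3 at 3 weeks and 13.1 at 6 months. Pygo2, a chromatin reader, had 6.4 RPKM at E18, 3.63 at 3 weeks and 3.61 at 6 months and was not called.

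Genes of sperm structures were all higher: 26 of 26 of the acrosome and egg binding (median 4.44), 33 of 33 of the axoneme (3.55) and 19 of 19 of the outer dense fiber and the sheaths (5.27). Over all established symbols 24.6% were higher. The lists of sperm structures differed in when their genes came. The median over axoneme genes was 2.99 from E18 to 3 weeks and 0.21 from there to 6 months, while for the dense fiber and sheath genes the steps were 2.19 and 3.04. Meig1, an axoneme assembly factor, had 0.265 RPKM at E18, 349 at 3 weeks and 303 at 6 months, and Rsph1, of the radial spoke, had 0.627 RPKM at E18, 266 at 3 weeks and 154 at 6 months. Crisp2, an acrosome protein, had 0.16 RPKM at E18, 118 at 3 weeks and 187 at 6 months, and Spaca3, a protein of the acrosome, had 0.0614 RPKM at E18, 2.2 at 3 weeks and 34.6 at 6 months. Smcp, of the mitochondrial sheath, had 0.0986 RPKM at E18, 6.39 at 3 weeks and 197 at 6 months, and Gapdhs, the sperm form of a glycolytic enzyme, had 1.5 RPKM at E18, 2.73 at 3 weeks and 162 at 6 months. In these lists and that of piRNA genes, some members had 0 reads at E18 (5 acrosome, 4 axoneme, 1 dense fiber, 1 chromatin and 1 piRNA gene), and setting them to 3 reads left each median as given.

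Spermatogonial and fetal germ cell genes gave a different picture. Of 21 spermatogonial genes listed, 11 were measured, 4 were higher and 0 lower (median 0.52), and 7 stayed within 2-fold. Over all established symbols, 24.6% were higher and 21.4% lower. Dmrtb1, which acts at the entry to meiosis, had 0.196 RPKM at E18, 60.5 at 3 weeks and 114 at 6 months, and Dazl, an RNA-binding protein of germ cells, had 3.53 RPKM at E18, 37.6 at 3 weeks and 9.77 at 6 months. Kit, the receptor of differentiating spermatogonia, had 1.95 RPKM at E18, 2.4 at 3 weeks and 1.79 at 6 months, and Uchl1, a spermatogonial marker, had 6.42 RPKM at E18, 8.33 at 3 weeks and 6.26 at 6 months. Of 16 fetal germ cell genes, 3 were measured and none was called, and their median of -0.32 turned positive under ribosomal protein scaling. Pou5f1, a pluripotency factor, had 1.23 RPKM at E18, 0.22 at 3 weeks and 0.172 at 6 months. It was within 2-fold on the log2(RPKM + 1) scale, though not by RPKM itself. Dnmt3l, a cofactor of DNA methylation in fetal germ cells, had 1.21 RPKM at E18, 0.177 at 3 weeks and 0.776 at 6 months.

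**Figure D2:**
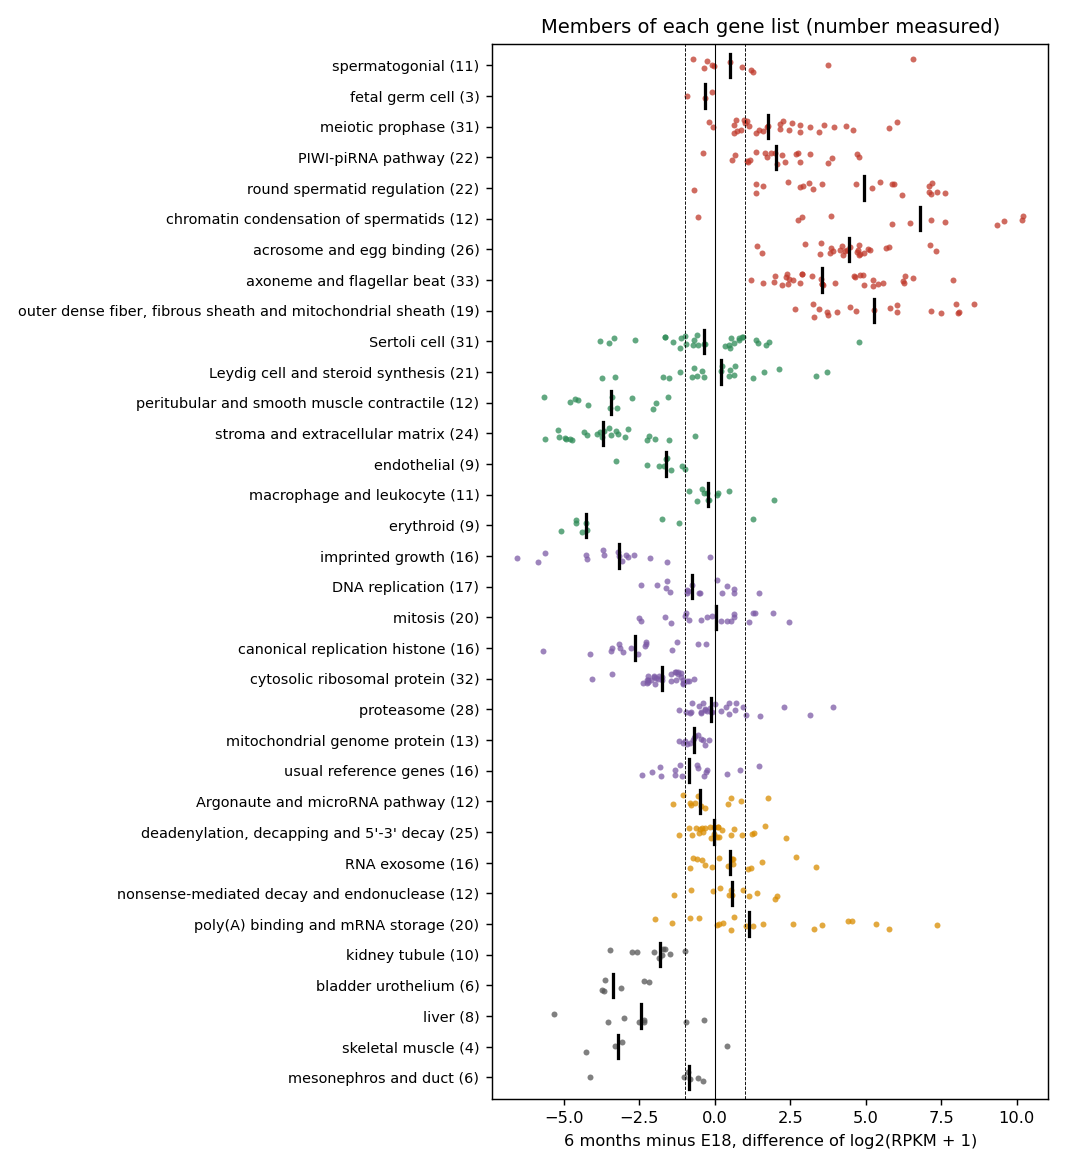
Each point is a measured gene, placed by its difference of log2(RPKM + 1), 6 months minus E18, in rows by gene list, with a black bar at the list's median and dashed lines at 2-fold. Germ cell lists stand to the right, with medians up to 6.81, contractile, stromal, imprinted and erythroid lists to the left, and Sertoli and Leydig cell lists spread to both sides of 0.

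Of 31 measured Sertoli cell genes, 5 were higher and 9 lower, beside 24.6% and 21.4% of all established symbols. These counts are not far from those shares, so only the single genes are described. The list median of -0.34 turned positive under ribosomal protein scaling. Amh, the hormone that removes the Müllerian duct in the fetus, had 11.4 RPKM at E18, 0.478 at 3 weeks and 0.218 at 6 months. Krt18, a keratin of fetal Sertoli cells and of many epithelia, had 15.2 RPKM at E18, 1.37 at 3 weeks and 0.16 at 6 months, and Inha, the alpha subunit of inhibin, had 62.6 RPKM at E18, 29.4 at 3 weeks and 19.3 at 6 months. Gdnf, a factor that keeps spermatogonial stem cells, had 2.6 RPKM at E18, 0.336 at 3 weeks and 0.159 at 6 months. These 4 were lower in both later libraries than at E18. Cldn11, a tight junction protein of the blood-testis barrier, had 5.9 RPKM at E18, 29 at 3 weeks and 16.9 at 6 months. Cst8, a cystatin placed in this list, had 1.34 RPKM at E18, 1.07 at 3 weeks and 63.2 at 6 months. Its difference of 4.78 lay in the last step, as for many spermatid genes above, and whether Sertoli cells hold it was not tested. Rhox5, an X-linked homeobox gene, had 0.761 RPKM at E18, 5.59 at 3 weeks and 5.09 at 6 months. Sox9, a defining Sertoli cell factor, had 2.12 RPKM at E18, 3.08 at 3 weeks and 1.49 at 6 months and was within 2-fold.

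Of 21 measured Leydig cell and steroid genes, 5 were higher and 5 lower (median 0.20; 14 higher and 2 lower under ribosomal protein scaling). These counts are near the 24.6% higher and 21.4% lower of all established symbols, so only the single genes are described. Insl3, a hormone of Leydig cells, had 33.7 RPKM at E18, 19.6 at 3 weeks and 357 at 6 months, a difference of 3.37. Cyp17a1, an androgen-making enzyme, had 37.8 RPKM at E18, 23.6 at 3 weeks and 119.8 at 6 months, and Hsd3b6, the 3-beta-hydroxysteroid dehydrogenase form of adult Leydig cells, had 0.324 RPKM at E18, 5.57 at 3 weeks and 16.2 at 6 months. Insl3 and Cyp17a1 were lowest at 3 weeks, while Hsd3b6 was higher at each step. Hsd17b1, an estrogen-making enzyme, had 13.3 RPKM at E18, 0.308 at 3 weeks and 0.0834 at 6 months, and Thbs2, a matrix protein and marker of fetal Leydig cells, had 10.1 RPKM at E18, 0.617 at 3 weeks and 0.113 at 6 months. Hsd17b3, which makes testosterone, had 12.5 RPKM at E18, 1.35 at 3 weeks and 9.21 at 6 months and came back to within 2-fold of its fetal level. Srd5a1, which reduces testosterone, had 3.04 RPKM at E18, 2.25 at 3 weeks and 0.243 at 6 months and was lower in the last step.

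Genes of the wall of the tubule and of the stroma were lower almost throughout. All 12 contractile genes were lower (median -3.43), as were 23 of 24 stromal and matrix genes (-3.71) and 8 of 9 measured endothelial genes (-1.60). Over all established symbols 21.4% were lower. The list medians of log2(RPKM + 1) at 6 months were 0.70 for stroma and 0.37 for vessels, below the level of 1 RPKM. Many of those genes thus passed the limit of 1 RPKM through E18 alone. The counts describe their direction and are no support for it. Acta2, smooth muscle actin, had 215 RPKM at E18, 24.5 at 3 weeks and 6.72 at 6 months, and Dcn, a matrix proteoglycan, had 149.8 RPKM at E18, 32.4 at 3 weeks and 9.11 at 6 months. Col3a1 and Col6a2, fibrillar and beaded collagens, had 62.5, 14.3 and 0.773 RPKM and 57.4, 4.23 and 0.60 RPKM at the 3 stages, and both were lower at each step. Cdh5, the cadherin of vessels, had 22.5 RPKM at E18, 2.62 at 3 weeks and 1.41 at 6 months. Sparc, a matrix protein, had 42.6 RPKM at E18, 30.2 at 3 weeks and 8.13 at 6 months, with most of its difference in the last step. Of 11 measured macrophage genes, 1 was higher and 0 lower, beside 24.6% and 21.4% of all established symbols. With so few genes, these counts say little about the cell type. C1qa, a complement gene, had 5.99 RPKM at E18, 3.46 at 3 weeks and 5.14 at 6 months. The macrophage list median was -0.24, positive under ribosomal protein scaling. Red cell genes were lower in 8 of 9, led by the alpha globins, whose near-identical copies share reads: Hba-a2 had 1606 RPKM at E18, 42.8 at 3 weeks and 65.3 at 6 months.

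Marker genes of organs beside the testis were also higher at E18, together with the lower gene groups. The summed RPKM of 10 kidney tubule genes was 45.4 at E18, 1.94 at 3 weeks and 2.55 at 6 months. For 8 bladder genes it was 54.6, 1.54 and 0.397, for 9 liver genes 78.4, 2.17 and 1.38, and for 10 skeletal muscle genes 46.8, 1.54 and 2.00. Alb, serum albumin, is among the 12 largest lower differences, with 41 RPKM at E18, 0.0721 at 3 weeks and 0.0547 at 6 months. Slc34a1, a phosphate carrier of the kidney tubule, had 12 RPKM at E18, 0 at 3 weeks and 0.161 at 6 months, and Upk1a, a protein of the bladder lining, had 12.9 RPKM at E18, 0.27 at 3 weeks and 0.0854 at 6 months. Kap, an androgen-regulated kidney gene, had 5.72 RPKM at E18 and 0 in both later libraries. At E14 the same sums were 2.63 for kidney, 26.6 for bladder, 327 for liver and 213 for muscle. The part of such tissue in the lower contractile, stromal, endothelial and keratin levels was not tested.

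Imprinted growth genes and replication histones were lower together. Of 16 measured imprinted genes, 15 were lower, beside 21.4% of all established symbols. Their median was -3.19, and 13 were lower and 1 higher under ribosomal protein scaling. The list median of log2(RPKM + 1) at 6 months was 0.53, below the level of 1 RPKM. Many of these genes thus passed the limit of 1 RPKM through E18 alone, and the count is no support for their direction. H19, a non-coding RNA that is not among the established symbols, had 101 RPKM at E18, 1.15 at 3 weeks and 0.096 at 6 months, a difference of -6.54 that is larger in size than that of Itm2a, and Igf2, the growth factor beside it, had 76.8 RPKM at E18, 1.43 at 3 weeks and 0.566 at 6 months. Dlk1, a fetal membrane protein, had 18.6 RPKM at E18, 0.13 at 3 weeks and 0.0198 at 6 months. Peg10, a gene derived from a retrotransposon, had 4.93 RPKM at E18, 8.46 at 3 weeks and 4.34 at 6 months and was the single measured member within 2-fold. Of 16 replication histones, 14 were lower, beside 21.4% of all established symbols. Their median was -2.66, and 8 were lower and 2 higher under ribosomal protein scaling. Near-identical copies share reads and make their levels uncertain. Most mRNAs of such histones lack a poly(A) tail, so these levels also depend on the RNA selection, on which the labels disagree. Hist1h1b, a linker histone, had 88.4 RPKM at E18, 1.27 at 3 weeks and 0.714 at 6 months. Hist1h1a, another linker histone, had 34.3 RPKM at E18, 73.2 at 3 weeks and 27.6 at 6 months and was highest at 3 weeks.

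Dividing cell genes were read as 2 lists. Of 17 DNA replication genes, 1 was higher and 5 lower, beside 24.6% and 21.4% of all established symbols. Their median of -0.75 turned positive under ribosomal protein scaling. Mcm2, of the replicative helicase, had 13.8 RPKM at E18, 4.83 at 3 weeks and 1.71 at 6 months, and Fen1, a flap endonuclease, had 0.977 RPKM at E18, 0.815 at 3 weeks and 4.51 at 6 months. Of 20 mitosis genes, 5 were higher and 4 lower (median 0.05), near the 24.6% and 21.4% of all established symbols. Aurka, a spindle kinase used in meiosis too, had 3.75 RPKM at E18, 24.1 at 3 weeks and 25.1 at 6 months, and Ccnb2, a B-type cyclin, had 10.4 RPKM at E18, 34.9 at 3 weeks and 42.2 at 6 months. Ccna2, the somatic A-type cyclin, had 11.7 RPKM at E18, 3.44 at 3 weeks and 1.31 at 6 months, and Ccnd2, a D-type cyclin, had 5.9 RPKM at E18, 1.09 at 3 weeks and 0.209 at 6 months.

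Ribosomal protein genes were lower in 29 of 32 (median -1.75, and -0.02 by construction after scaling on these genes). Rps4x, X-linked, had 35.3 RPKM at E18, 3.45 at 3 weeks and 1.15 at 6 months, a difference of -4.08, and Rps3 had 50.7 RPKM at E18, 14.1 at 3 weeks and 9.02 at 6 months, though pseudogenes share their reads. Proteasome genes were mostly within 2-fold, with 5 of 28 higher and 1 lower, beside 24.6% and 21.4% of all established symbols. Their median of -0.12 had the other sign after equal-sum and ribosomal protein scaling. Psmc3, a regulatory ATPase, had 5.18 RPKM at E18, 40.5 at 3 weeks and 54.7 at 6 months, and Psma8, the germ cell alpha subunit, had 0.613 RPKM at E18, 60.8 at 3 weeks and 23.5 at 6 months. The usual reference genes were lower in 8 of 16 and higher in 1 (median -0.85, positive under ribosomal protein scaling). Actb, cytoplasmic actin, had 283 RPKM at E18, 74.8 at 3 weeks and 81.9 at 6 months, and Gapdh had 7.62 RPKM at E18, 1.24 at 3 weeks and 1.06 at 6 months. Steadier were 405 symbols whose 3 values of log2(RPKM + 1) lay within 0.3, led by Serinc3, a membrane protein, with 38.4 RPKM at E18, 44.8 at 3 weeks and 37.7 at 6 months, and Puf60, a splicing factor, with 22.4 RPKM at E18, 20.0 at 3 weeks and 23.6 at 6 months.

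The series' title concerns cleavage of transcripts by endonucleases guided by small RNAs, so genes of RNA decay and storage were read as well. Ago2, the Argonaute that cleaves its target, had 2.88 RPKM at E18, 2.56 at 3 weeks and 1.19 at 6 months, and Ago1 had 3.36 RPKM at E18, 1.35 at 3 weeks and 0.678 at 6 months. Ago3 had 0.693 RPKM at E18, 1.73 at 3 weeks and 0.494 at 6 months, Ago4, the Argonaute best known in spermatocytes, had 0.248 RPKM at E18, 2.6 at 3 weeks and 1.27 at 6 months, and Dicer1, which cuts small RNA precursors, had 1.07 RPKM at E18, 1.37 at 3 weeks and 0.402 at 6 months. Of 12 measured genes of the Argonaute and microRNA pathway, 1 was higher and 2 were lower, beside 24.6% and 21.4% of all established symbols. The higher gene was Tarbp2, a partner of Dicer (1.53, 4.86 and 7.56 RPKM), and the lower ones were Ago1 and Tnrc6a. Ago2, Ago4 and Dicer1 were within 2-fold on the log2(RPKM + 1) scale, though not by RPKM itself. The list median was -0.50, positive under ribosomal protein scaling. Argonaute levels in the adult thus lay between 0.494 RPKM for Ago3 and 1.27 for Ago4, beside 30.6 for Piwil1.

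Of 25 deadenylation and decapping genes, 4 were higher and 1 lower, beside 24.6% and 21.4% of all established symbols. The sign of their median of -0.02 changed in 3 of 4 alternatives. Cnot1, the scaffold of the deadenylase, had 9.8 RPKM at E18, 53.9 at 3 weeks and 33.2 at 6 months, and Lsm2, of the decapping ring, had 1.32 RPKM at E18, 8.95 at 3 weeks and 10.8 at 6 months. Exosome genes were higher in 5 of 16 and lower in 0 (median 0.51): Dis3l, a cytoplasmic exoribonuclease, had 2.39 RPKM at E18, 40.5 at 3 weeks and 33.4 at 6 months. Nonsense-mediated decay genes were higher in 4 of 12 and lower in 1 (median 0.55): Smg5, a decay adaptor, had 5.22 RPKM at E18, 17.4 at 3 weeks and 25.1 at 6 months. Smg6, the endonuclease of this pathway, had 2.11 RPKM at E18, 5.86 at 3 weeks and 4.88 at 6 months. It was within 2-fold on the log2(RPKM + 1) scale, though not by RPKM itself. The higher counts of these 2 lists are not far from the 24.6% of all established symbols. Among 20 measured genes of poly(A) binding and mRNA storage, 11 were higher and 2 lower (median 1.15). Ybx3, a Y-box protein, had 12.2 RPKM at E18, 221 at 3 weeks and 280.3 at 6 months, and Pabpc4, a poly(A) binding protein, had 4.71 RPKM at E18, 0.878 at 3 weeks and 0.444 at 6 months.

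The library at 3 weeks says when each difference arose. Of the 2750 higher symbols, 1425 (51.8%) were higher by 3 weeks with no further 2-fold step, 524 (19.1%) only in the step from 3 weeks to 6 months, and 364 (13.2%) at both steps. A further 349 (12.7%) passed the limit only over both steps together, 77 went past the adult level and came back by at least 2-fold, and 11 dipped first. Of the 2391 lower symbols, 1359 (56.8%) were lower by 3 weeks, 155 (6.48%) only afterwards, 102 (4.27%) at both steps and 765 (32.0%) over both together. Late lower genes were thus a smaller share of the lower symbols than late higher genes were of the higher ones.

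The genes with the largest differences of each path show their kinds. Spata4, a spermatogenesis gene, was an early one, with 0.193 RPKM at E18, 268 at 3 weeks and 298 at 6 months. Lower late were Fabp4, a fatty acid binding protein of fat and vessel cells, with 25.2 RPKM at E18, 24.4 at 3 weeks and 1.7 at 6 months, and Ddx3x, an X-linked RNA helicase, with 24.1 RPKM at E18, 12.3 at 3 weeks and 3.5 at 6 months. Lyar, a nucleolar protein, went past the adult level, with 2.87 RPKM at E18, 179 at 3 weeks and 87.4 at 6 months, as did Cyct, the germ cell cytochrome c, with 0.357 RPKM at E18, 99.6 at 3 weeks and 31.8 at 6 months. Agt, angiotensinogen, dipped first, with 8.99 RPKM at E18, 2.62 at 3 weeks and 67.5 at 6 months, as did Lcn2, a lipocalin, with 2.55 RPKM at E18, 0.755 at 3 weeks and 42.1 at 6 months. Ube3b, a ubiquitin ligase, had 4.69 RPKM at E18, 10.2 at 3 weeks and 19.5 at 6 months and passed the limit only over both steps.

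**Figure D3:**
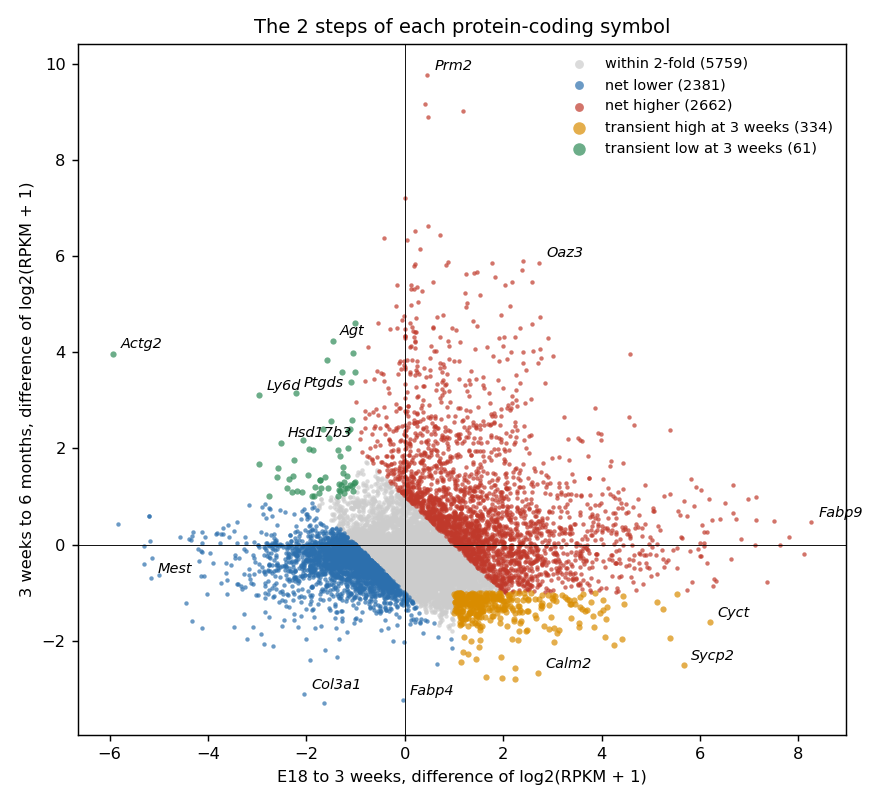
Each point is an established symbol, with the step from E18 to 3 weeks on the horizontal axis and the step from 3 weeks to 6 months on the vertical axis, both as differences of log2(RPKM + 1), coloured by class, with transient genes drawn apart from the higher and lower ones. Late genes such as Prm2 stand near the vertical axis, early ones such as Fabp9 and Mest near the horizontal one, transient highs at lower right and transient lows at upper left.

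A transient high at 3 weeks means a level at least 2-fold above both ends, and a transient low a level at least 2-fold below both. Among all 37493 entries, 3283 were transient highs (8.76%) and 287 transient lows (0.765%). Of the highs, 2008 were short entries with DQ identifiers, 61.2% of all. Among established symbols there were 334 highs (2.98%) and 61 lows (0.545%). Of the 334, 254 ended within 2-fold of the fetal level, so that the comparison of the ends alone does not show them, while 77 ended higher and 3 lower. Of the 61 lows, 43 ended within 2-fold, 11 higher and 7 lower. Entries that reached 1 RPKM at 3 weeks alone are outside the comparison, and with them the highs are 3997 of 41899 entries (9.54%).

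Transient highs were frequent among meiotic genes. Of 31 measured meiotic genes, 16 were transient highs, beside 2.98% of all established symbols. The number was 18, 11 and 8 under equal-sum, median-of-ratios and ribosomal protein scaling. Sycp2, an axial element protein, had 0.307 RPKM at E18, 65.9 at 3 weeks and 10.7 at 6 months. Meiob, a single-strand binding protein of meiotic recombination, had 0.102 RPKM at E18, 20.1 at 3 weeks and 3.97 at 6 months, and Tex12 had 0.742 RPKM at E18, 13.3 at 3 weeks and 2.48 at 6 months. The piRNA list gave 5 highs of 22 (7, 1 and 0 under the same scalings), Tdrd1 among them, a Tudor protein, with 0.623 RPKM at E18, 20.0 at 3 weeks and 7.23 at 6 months. The 5 spermatid lists together gave 2: Taf7l, a TFIID subunit of germ cells, with 0.494 RPKM at E18, 12.1 at 3 weeks and 2.82 at 6 months, and Tex101, a surface protein of germ cells in the acrosome list, with 1.27 RPKM at E18, 78.9 at 3 weeks and 33.6 at 6 months.

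Genes of the mitochondrial genome were another group. Of 13, 10 were transient highs (13, 7 and 12 under the scalings), beside 2.98% of all established symbols. Between the ends 0 were higher and 2 lower (median -0.70, positive under ribosomal protein scaling), beside 24.6% and 21.4%. The summed RPKM of the 13 was 3972 at E18, 10270.4 at 3 weeks and 2534 at 6 months. mt-Atp8, a subunit of ATP synthase, had 208 RPKM at E18, 986 at 3 weeks and 142 at 6 months, and mt-Nd2, of complex I, had 139 RPKM at E18, 550.0 at 3 weeks and 78.9 at 6 months. Calm2, a calmodulin gene, was the largest high by distance from the nearer end (2.67), with 6.48 RPKM at E18, 48.1 at 3 weeks and 6.71 at 6 months. Rhox8, an X-linked homeobox gene of Sertoli cells, had 1.11 RPKM at E18, 9.5 at 3 weeks and 1.67 at 6 months.

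Under the wider filter the 4 largest further highs were Crisp1, Spink8, Cd52 and Cuzd1. Crisp1, a secreted protein of the epididymis, had 0.206 RPKM at E18, 41.5 at 3 weeks and 0.0197 at 6 months, and Spink8, a protease inhibitor known from the epididymis, had 0.993 RPKM at E18, 22 at 3 weeks and 0.739 at 6 months. Cd52, a surface protein of lymphocytes and of the epididymis, had 0.172 RPKM at E18, 8.83 at 3 weeks and 0.235 at 6 months, and Cuzd1, a membrane protein of secretory epithelia, had 0.013 RPKM at E18, 11.4 at 3 weeks and 0.669 at 6 months. The 10 listed epididymis genes summed to 1.39 RPKM at E18, 67.7 at 3 weeks and 3.34 at 6 months. Crisp1 and Spink8, with 41.5 and 22 RPKM at 3 weeks, are both in that list. The 3-week sum is thus mostly genes already named for their highs and adds little to them. Lcn8, another defining epididymis gene, had 0 RPKM at E18, 0.0451 at 3 weeks and 0 at 6 months. The part of such tissue in the 3-week highs was not tested.

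The transient lows included smooth muscle, steroid and secretory genes. Actg2, smooth muscle gamma actin, had 226 RPKM at E18, 2.73 at 3 weeks and 57.5 at 6 months, lower at 3 weeks by 3.97 than at the lower end. Ptgds, a prostaglandin synthase, had 8.5 RPKM at E18, 1.05 at 3 weeks and 17.3 at 6 months, and Ly6d, a surface protein, had 7.78 RPKM at E18, 0.128 at 3 weeks and 8.73 at 6 months. Hsd17b3, Cyp11a1 and Scarb1 were the 3 lows of the Leydig cell list (2, 6 and 1 under equal-sum, median-of-ratios and ribosomal protein scaling). Cyp11a1, the first enzyme of steroid synthesis, had 29.5 RPKM at E18, 9.43 at 3 weeks and 47.7 at 6 months, and Scarb1, a receptor that brings in cholesterol, had 9.0 RPKM at E18, 3.44 at 3 weeks and 10.8 at 6 months. Tpi1, a glycolytic enzyme, had 44.5 RPKM at E18, 11.6 at 3 weeks and 47.9 at 6 months, and Tspan6, an X-linked tetraspanin, had 7.02 RPKM at E18, 0.915 at 3 weeks and 7.66 at 6 months. Both were nearly equal at the ends, so the dip is visible only with the middle library.

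Pairs of somatic and germ cell forms were compared gene by gene. Some, such as Actb and the actin-like Actl7a, are related proteins and not forms of the same protein. In 32 pairs, the germ cell form was higher at 6 months in 30 and lower in 0. The somatic form was lower in 17 and higher in 3, Ldha, Pabpc1 and Ybx1, and in 15 pairs the germ cell form was higher and the somatic form lower. The germ cell form made up more than 50% of the pair's summed RPKM in 1 pair at E18, 26 at 3 weeks and 28 at 6 months. RPKM is scaled to length, so the forms were set side by side. Reads shared with pseudogenes or near-identical copies can shift a pair's share, and how such reads were handled is not given. The shares are therefore approximate. Each pair was chosen for a known germ cell form, so the direction of that form is no independent result.

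Pgk1 had 10.4 RPKM at E18, 1.4 at 3 weeks and 1.15 at 6 months, and Pgk2 had 0.0551 RPKM at E18, 43.1 at 3 weeks and 231 at 6 months, so that the germ cell share went from 0.528% to 96.8% and 99.5%. Pdha1, the X-linked pyruvate dehydrogenase subunit, had 15.3 RPKM at E18, 3.34 at 3 weeks and 1.04 at 6 months, and its autosomal form Pdha2 had 0.137 RPKM at E18, 29.9 at 3 weeks and 26.4 at 6 months. Rpl39, an X-linked ribosomal protein gene, had 24.5 RPKM at E18, 4.31 at 3 weeks and 1.38 at 6 months, and Rpl39l had 2.21 RPKM at E18, 57.9 at 3 weeks and 68.4 at 6 months. In each of these 3 the exchange was nearly complete at 3 weeks. Gapdh and Gapdhs went later, with a germ cell share of 16.5% at E18, 68.7% at 3 weeks and 99.4% at 6 months. Capza2 and Capza3, capping proteins of actin, went later still, with shares of 0.691%, 27.6% and 94.9%. Cox8a, of cytochrome c oxidase, had 62.7 RPKM at E18, 11.7 at 3 weeks and 13.6 at 6 months, and Cox8c had 0.0614 RPKM at E18, 74 at 3 weeks and 89 at 6 months.

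Many pairs did not exchange, as only 15 of 32 had the germ cell form higher and the somatic form lower. Ldha, the somatic lactate dehydrogenase, had 37.2 RPKM at E18, 61.2 at 3 weeks and 96.8 at 6 months, higher in the adult along with Ldhc. Pabpc1, the main poly(A) binding protein, had 7.39 RPKM at E18, 71.5 at 3 weeks and 49.5 at 6 months, and Pabpc6 had 0.082 RPKM at E18, 76 at 3 weeks and 58 at 6 months, with a share of 53.9% for the germ cell form at 6 months, though an intronless copy such as Pabpc6 can share reads with its parent gene. Rad21 and Rad21l, cohesin kleisins, kept the somatic form ahead, with germ cell shares of 1.89%, 13.1% and 7.02%. Slc25a5 and Slc25a31, ADP/ATP carriers, had shares of 3.25%, 42.6% and 30.2%. Under ribosomal protein scaling the differences of Rad21, Ppp3r1, Pfn1 and Actb, called lower at the deposited scale, were above 0.

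**Figure D4:**
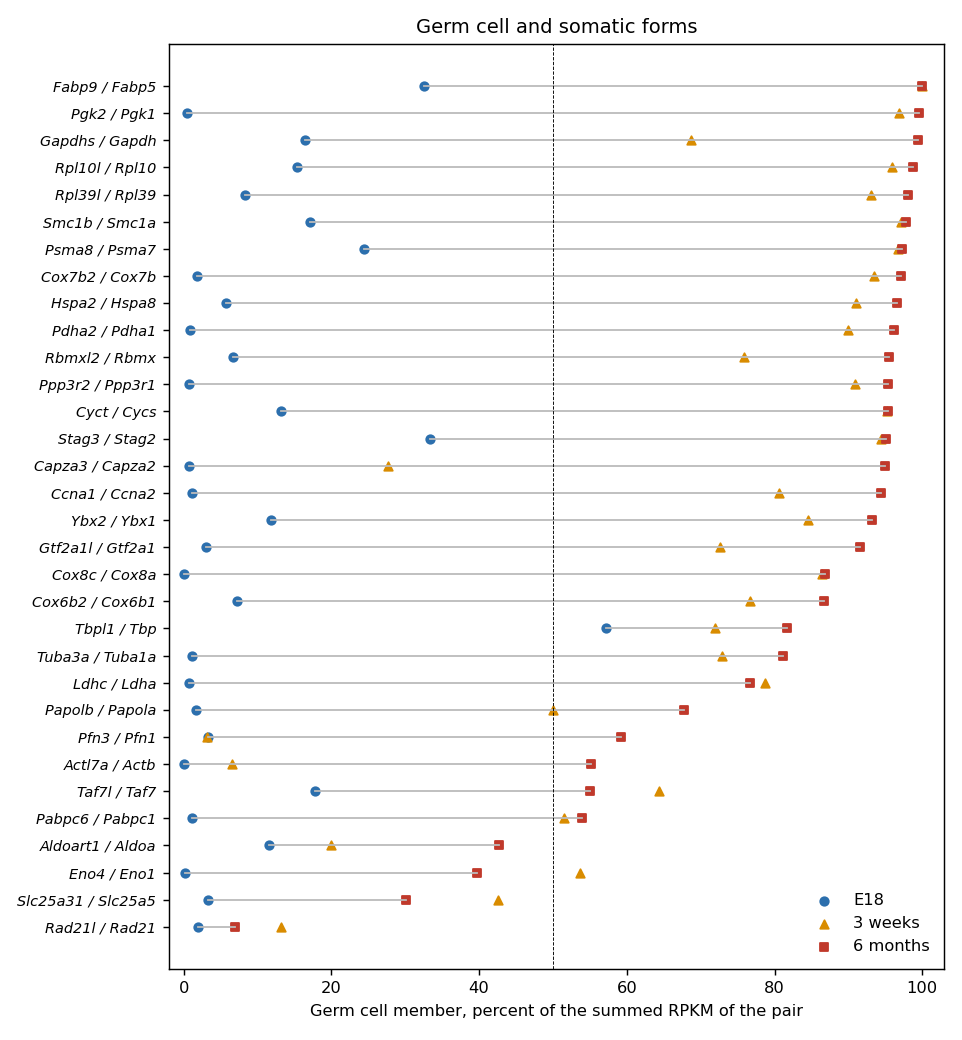
For each of the 32 pairs (germ cell form / somatic form), the horizontal axis gives the germ cell form's percent of the pair's summed RPKM at E18, 3 weeks and 6 months. It exceeds 50% in 1 pair at E18, in 26 at 3 weeks and in 28 at 6 months, and Capza3 and Pfn3 move mainly after 3 weeks.

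X-linked genes stood apart from the autosomes, which the comparison did not use. Of 371 X-linked symbols, 175 were lower (47.2%) and 58 higher (15.6%), with a median difference of -0.95. Of 10807 autosomal symbols, 20.5% were lower and 24.9% higher, with a median of -0.06. Over the 19 autosomes the percent lower ranged from 15.7 to 29.1, so the X was outside that range. Under ribosomal protein scaling the X median turned to 0.02 and that of the autosomes to 1.22, with 9.16% and 4.06% lower, so the direction depends on the scaling, while the X median lay below the autosomal one under each of the 3 rescalings and with a pseudocount of 0.1. Both steps had a part: the X median was -0.52 from E18 to 3 weeks and -0.41 afterwards, against 0.20 and -0.23 for autosomes. X genes lower at both steps were a large share of that path: 19 of 102 (18.6%), while the X holds 3.32% of all measured symbols.

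Among genes higher by 3 weeks with no further step, 10 of 1423 were X-linked (0.703%), against 25 of 523 (4.78%) of those higher only in the last step. Akap4 is an X-linked gene with most of its difference in that step. Ddx3x, Cox7b and Rap2c were X-linked genes among the largest of the late and gradual lower paths: Cox7b, of cytochrome c oxidase, had 15 RPKM at E18, 7.01 at 3 weeks and 1.79 at 6 months, and Rap2c, a small GTPase, had 5.96 RPKM at E18, 2.71 at 3 weeks and 0.867 at 6 months. Of the 17 somatic pair members that were lower, Pgk1, Pdha1, Cox7b, Slc25a5, Rpl10, Rpl39 and Rbmx are X-linked, each with an autosomal germ cell form.

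Promoter sequence differed between the paths. A RefSeq promoter of 300 bases was found for 8998 of the 11197 symbols (80.4%). The median number of CG dinucleotides was 20 over all of these, 22 for genes within 2-fold and 21 for genes higher by 3 weeks. Genes higher only in the last step had a median of 7.5 and those higher at both steps 8.5. In these groups 40.8% and 43.8% of promoters held 5 or fewer, as do those of Prm1, Prm2 and Pgk2 shown above, against 11.2% of all measured genes. Lower genes had medians of 16 (by 3 weeks) and 23 (only afterwards), and transient highs 24. The medians describe genes, which are not replicates, and genes with no promoter in the table are not covered. Over all 27025 genes of the promoter table, most of them outside the comparison, the median was 7.

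Letter matches of 4 known motifs were counted on both strands. The short cAMP response site TGACG, the binding letters of CREM and its relatives, was in 31.4% of measured promoters, 26.7% of those higher only in the last step and 18.8% of those higher at both steps. The full response element TGACGTCA, which contains the short site, was in 3.35%, 2.36% and 2.78%. The CCAAT box was in 39.3%, 37.3% and 45.8%. The E-box CACGTG was in 10.3%, 8.02% and 5.90%, and in 22.6% of the 62 promoters of genes that went past the adult level. Over the whole promoter table the shares were 20.9% for the short site, 1.85% for the full element, 38% for the CCAAT box and 7.24% for the E-box. The short site, the full element and the E-box contain a CG dinucleotide, so their shares move with the CG count by its letters. In 20 pairs with both promoters, the somatic form had more CG dinucleotides in 12, the germ cell form in 7 and 1 pair was equal, with Ldha at 30 and Ldhc at 9, but Ybx1 at 32 and Ybx2 at 40.

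**Figure D5:**
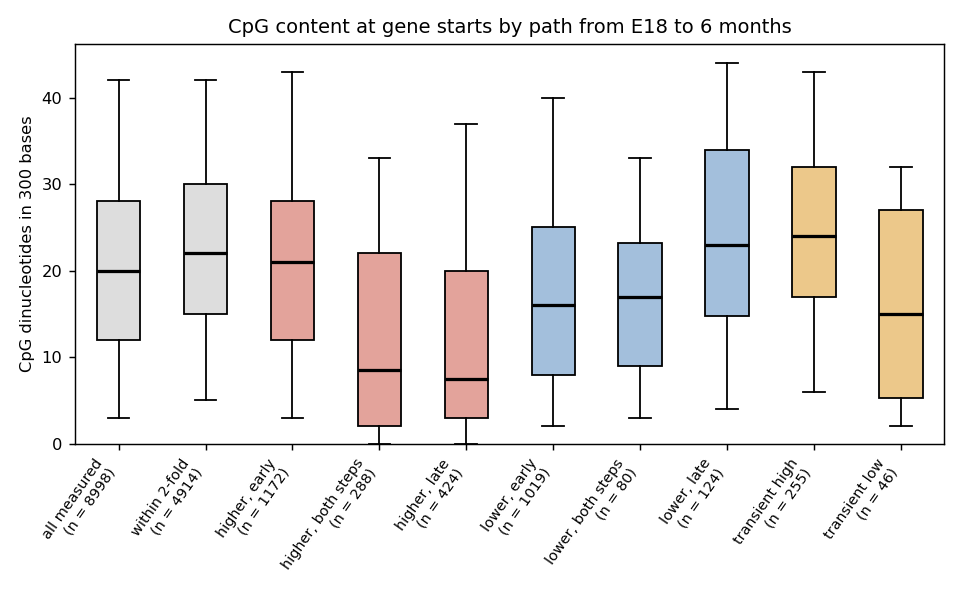
Boxes give the CG dinucleotides in the 300-base promoter by path and class (median line, quartile box, whiskers from the 5th to the 95th percentile, number of genes below). Genes higher only in the last step and those higher at both steps sit lowest, with medians of 7.5 and 8.5, against 20 over all measured genes.

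The libraries were of like depth, with RPKM denominators of 34228140 reads at E18, 33952471 at 3 weeks and 35801602 at 6 months. In a gene model of 1 kb, 3 reads correspond to 0.0876 RPKM at E18 and 0.0838 at 6 months, so levels below these are not told from 0. The 10 highest symbols took 11.9% of the summed RPKM of established symbols at E18 and 10.2% at 6 months, led by alpha globin and by Tnp1. That sum itself was 63589 at E18 and 92487 at 6 months.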

How the data were processed

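RNA was sequenced in 4 mouse testis libraries, 1 per stage. Per the labels, ribosomal RNA was depleted; the protocol and the molecule field also name selection of polyadenylated RNA, which the sample descriptions and the design text do not. The authors deposited RPKM per entry. Per the submitters' processing notes, TopHat2 and build mm10 were used. Which counter and annotation gave the values, and whether strand was used or multiply mapped reads were kept, is not given in the sources used here. Overlapping, antisense and near-identical genes may share reads.

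Differences of log2(RPKM + 1) between E18 and 6 months were computed for entries of at least 1 RPKM in either, with a limit of 2-fold and the 3-week library in between. Library sizes came from the most frequent level among single-exon genes. Whole reads were the smallest counts that gave the deposited values at 1 shared model length, found for 100% of 11790 entries. True counts may be a multiple of them. They gave exact Clopper-Pearson intervals (95%), for counting error only. Entries were matched by symbol to GENCODE vM21 on GRCm38 (15615 matched by current and 874 by an older name, 74 through RefSeq only). Promoters came from RefSeq on GRCm38.p6, using the most upstream start of a gene; protein sequences were not used here.

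The members and the 35 gene lists and 32 pairs were chosen with earlier results of these data known. Named genes were the 12 largest differences each way (mean of at least 5 RPKM), the 8 largest transient highs and lows and 4 more highs under the wider filter, up to 3 members each way of each list, all pair members, the 4 largest of each path, 6 steady genes, 3 genes at each side of a limit, and the protamine, transition protein, Piwi and Argonaute genes and Dicer1. Not all genes that this rule selects are reported here. A few further list members were named to show values within 2-fold, other stages or marker levels, after their values were seen. Alternatives were a pseudocount of 0.1, a minimum of 5 RPKM, no filter, a filter over 3 libraries, a 4-fold limit, 3 rescalings and established symbols alone. The procedure was tested on simulated data. Python 3.11.15, pandas 2.3.3, scipy 1.17.1 and matplotlib 3.10.9 were used.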

Additional observations from a re-analysis of the deposited data

How the results depend on the processing

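At the deposited scale 14130 entries were higher, 6603 lower, 3283 transient highs and 287 transient lows. Lower entries numbered 10112 and transient lows 924 with a pseudocount of 0.1. With a minimum of 5 RPKM there were 8100 higher, 2988 lower and 1690 transient highs. A 4-fold limit left 7787 higher, 1392 lower, 539 highs and 27 lows. The median of ratios gave 1670 highs and 632 lows, and ribosomal protein scaling 23521 higher, 1007 lower, 1813 highs and 149 lows. Established symbols alone gave 2750, 2391, 334 and 61. The other counts under these settings, and those with no filter, a filter over 3 libraries or equal-sum scaling, stayed within 1.5 times. Under ribosomal protein scaling 16 named genes called lower had differences above 0: Psma1 0.38, mt-Nd3 0.69, mt-Nd5 0.84, Tnrc6a 0.27, Dcp2 0.015, Magoh 0.40, Eif4ebp1 0.18, Rad21 0.49, Ppp3r1 0.44, Pfn1 0.50, Actb 0.11, Tubb6 0.52, Tmem176b 0.53, Ssb 0.44, Jmjd8 0.65 and Sdc4 0.67. The cause was not tested. No paired analysis was possible because each stage is 1 library. Leaving out a replicate was likewise not possible, and the depth limits genes near 3 reads.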
